A study of Mus musculus with 16 samples.

Results

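The genes described here are 10 members of the NRF2 antioxidant pathway: the transcription factor Nfe2l2 (NRF2), its inhibitor Keap1, the competing repressor Bach1, and 7 target genes, Hmox1, Nqo1, Gclm, Gclc, Txnrd1, Srxn1 and Prdx1. They were chosen by the gene name that the array files give each probe. The rule found 15 of 41174 probes, which stood for 10 of the 17658 genes tested. All 15 probes passed the filter on dim probes.

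The cells were macrophages grown from the bone marrow of male C57BL/6Jax mice, wild type (WT) or lacking miR-155 (miR-155 KO), with M-CSF, which drives macrophage differentiation, at 10 ng/mL over 9 days. They were lysed unstimulated (0 h) or after 6, 12 or 24 h in 100 ng/mL LPS, the bacterial lipopolysaccharide that activates Toll-like receptor 4. Each of the 8 groups has 2 arrays, 16 in all, and the labels do not say whether these are separate animals or cultures, so p-values measure only the spread between these arrays, which may be technical. Array 1 of every group was scanned in one session and array 2 in another, so session and replicate number cannot be told apart. Neither Mir155 nor its host gene has a probe, and the deletion could not be checked.

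NRF2 is a basic leucine zipper protein that is normally held in the cytoplasm and sent for degradation by KEAP1. Oxidants and electrophiles block KEAP1, and NRF2 then binds antioxidant response elements as a partner of the small MAF proteins and switches on genes for glutathione, thioredoxin and heme metabolism. BACH1 binds the same elements with the same partners, represses them, and is released by heme. In macrophages this system limits oxidative damage during the inflammatory response, and Bach1 is a reported target of miR-155.

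The mature microRNA removed in the KO is printed because Bach1 was included as its reported target. It lies at chr16:84714143-84714165 on the plus strand (GRCm38.p6, RefSeq), and the capitals mark its seed, bases 2 to 8.
mmu-miR-155-5p: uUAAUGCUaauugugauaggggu

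The antioxidant response element core TGACNNNGC and the related AP-1 site TGAGTCA were searched on both strands in the 300 bases around the start of each gene, 250 before it and 50 after. RefSeq promoters were listed for 8 of the 10 members, and Hmox1 and Gclc had no entry. The core was found for Nfe2l2, Gclm, Prdx1, Srxn1 and 1 of 3 starts of Txnrd1, against 12.4% of all 32851 promoters listed. The AP-1 site was found for Srxn1 and Prdx1, against 5.2% of all promoters. The windows before the start are shown on the strand of the gene, with the matching letters in capitals. A link between these sites and the changes given below was not tested. The members were chosen as genes of this pathway, so the share with a core is a description only. The core of Srxn1 lay after the start and is not printed, and the letters were not in the windows of Keap1, Bach1 and Nqo1. A core on the other strand reads GCNNNGTCA here, and in Prdx1 it overlaps an AP-1 site.
Nfe2l2, 240 bases before the start, chr2:75704885-75704913, minus strand: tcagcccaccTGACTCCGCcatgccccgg
Gclm, 134 bases before the start, chr3:122245413-122245441, plus strand: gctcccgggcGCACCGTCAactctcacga
Prdx1, 133 bases before the start, chr4:116685456-116685484, plus strand: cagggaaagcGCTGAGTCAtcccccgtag
Prdx1, 237 bases before the start, chr4:116685352-116685378, plus strand: aacgaggaaaTGACTCAaagggcagtg
Srxn1, 45 bases before the start, chr2:152105469-152105495, plus strand: aaattcacccTGAGTCAgcggccgggc
Srxn1, 102 bases before the start, chr2:152105412-152105438, plus strand: tcggagggccTGAGTCAccacgctgtg
Txnrd1, 92 bases before the start, chr10:82859104-82859132, plus strand: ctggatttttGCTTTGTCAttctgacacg

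A level below is the log2 signal of a probe relative to the 75th percentile of its array, so it compares arrays for 1 probe and not 1 gene with another. That percentile was 270.8 to 729.9 intensity units, and the share of probes well above background was 56% to 67.6%. All 9 macrophage markers, among them Adgre1, Csf1r and Cd68, were well above background on all 16 arrays. Of the other lineages' defining markers, Elane, Alas2, Ncr1 and Pdgfra were above background on 0 arrays. The summed level of 7 neutrophil markers, among them S100a8 and S100a9, was 3.31 to 5.62 on the session 1 arrays and -0.54 to 2.08 on the session 2 arrays, with no overlap. At 0 h the dendritic markers (4.05 to 4.73 against 2.69 to 2.87), the T and NK markers (-1.23 to -1.17 against -3.53 to -3.30) and the macrophage markers (10.6 to 10.87 against 9.81 to 9.92) were lower in session 2 too. At 0 h the B cell markers were likewise lower there (-0.92 to -0.70 against -1.49 to -1.27), and the erythroid markers were higher (0.18 to 0.44 against 0.70 to 1.28). These differences move with every session difference given below, and their part in them was not tested. In a culture such as this one, fewer cells of a type and less RNA per cell cannot be told apart.

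**Figure D1:**
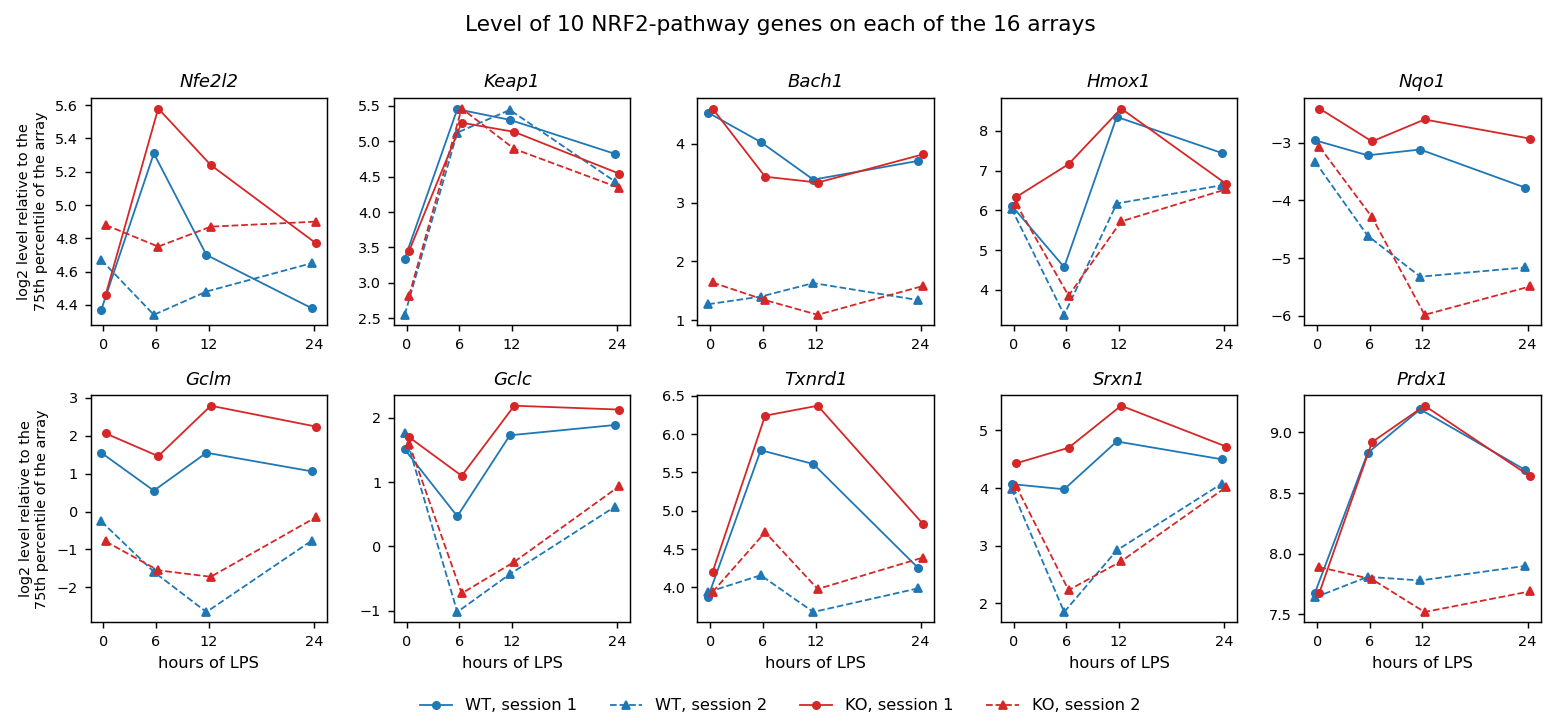
Level of each of the 10 genes (log2 relative to the 75th percentile of the array) against hours of LPS, with WT in blue, miR-155 KO in red, session 1 as circles on solid lines and session 2 as triangles on dashed lines. Each point is 1 array. Keap1 lies between 2.55 and 3.45 at 0 h and between 4.34 and 5.46 on every later array, while most other genes separate by session rather than by genotype.

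Keap1 was the member that changed in every LPS comparison. It encodes the adaptor that presents NRF2 to a ubiquitin ligase, and its probe is at chr9:21035292-21035732 (mm9, minus strand), a span of 441 bases for a 60-base probe, which means that it crosses an intron. In WT the session 1 and session 2 arrays read 3.34 and 2.55 at 0 h, 5.45 and 5.12 at 6 h, 5.30 and 5.44 at 12 h, and 4.82 and 4.43 at 24 h. In KO they read 3.45 and 2.82, 5.26 and 5.46, 5.13 and 4.89, and 4.54 and 4.34 at the same times. Every LPS array lay above every 0 h array in both genotypes. The share of all genes separated in such a way was not computed, here or for the other members below.

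Keap1 rose in WT by 2.34 ± 0.33 on the log2 scale at 6 h, 2.42 at 12 h and 1.68 at 24 h (SE of the fit, n = 2 arrays a group; limma adjusted p = 0.000622, 0.000697 and 0.00853). In KO it rose by 2.23, 1.88 and 1.31 (limma adjusted p = 0.000793, 0.00299 and 0.0313). With both genotypes averaged the changes were 2.28 ± 0.23, 2.15 and 1.50 (limma adjusted p = 3.12e-05, 6.37e-05 and 0.00112). The level then declined, and 24 h was below 6 h by 0.79 on the same scale (a change of -0.79 ± 0.23, limma adjusted p = 0.0302). Of all genes, 25.4%, 19.3% and 11% were called at 6, 12 and 24 h in WT, 26%, 19.4% and 9.9% in KO, and 40.7%, 34.5% and 22.8% with both averaged. Keap1 is 1 of 10 members, a share below these backgrounds other than in KO at 24 h, where the values are close.

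None of the Keap1 calls passed with a normexp background correction, under which single spots with an extreme local background compressed both session 1 arrays at 12 h, and all of them passed once that background was capped. Some calls rest on single arrays or settings. The 24 h call in KO was lost with median scaling (1.60, limma adjusted p = 0.0545), quantile normalization (1.15, 0.0678) and no filter on dim probes (1.31, 0.0582). The 24 h call was lost in WT without WT 24 h replicate 1 (1.48, limma adjusted p = 0.0618) or WT 0 h replicate 2 (1.28, 0.0861). In KO it was lost without KO 24 h replicate 1 (1.21, 0.124), KO 24 h replicate 2 (1.41, 0.114) or KO 0 h replicate 2 (adjusted p = 0.223). The decline from 6 h to 24 h was lost without any 1 of 6 arrays: WT 6 h replicate 1, KO 6 h replicate 1 or 2, WT 24 h replicate 2, or KO 24 h replicate 1 or 2 (limma adjusted p = 0.0563 to 0.0978). It was lost as well with median scaling (-0.58, adjusted p = 0.237), quantile normalization (-0.40, 0.274) and no filter (-0.79, 0.0523).

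No other member passed in the fit without a session term, where the replicate spread includes the difference between sessions. The replicate numbers did pair the arrays, since arrays of 1 number deviated together: the correlation was 0.40 to 0.84 over the 28 pairs of groups. With the session as a term (the replicate block) and both genotypes averaged, 4 of 10 members were called at 6 h, 3 at 12 h and 2 at 24 h, against 59.5%, 53.3% and 41.9% of all genes. In 1 genotype alone the counts were 2, 1 and 1 in WT, against 45.6%, 37.6% and 27.4% of genes, and 1 at each time in KO, against 43.7%, 38.4% and 24.1%. These shares of members are below the background. The members that joined Keap1 are described in turn, with the session term in the fit unless stated.

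Nfe2l2 itself, read by a probe at chr2:75513771-75513830 (mm9, minus strand), was not called in the LPS comparisons of either of these fits. In WT the arrays of sessions 1 and 2 read 4.37 and 4.67 at 0 h, 5.31 and 4.34 at 6 h, 4.70 and 4.48 at 12 h, and 4.38 and 4.65 at 24 h. In KO they read 4.46 and 4.88, 5.58 and 4.75, 5.24 and 4.87, and 4.77 and 4.90. The session 1 arrays were highest at 6 h in both genotypes, and the session 2 arrays stayed within 4.34 to 4.90.

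A second Nfe2l2 probe at chr2:75513917-75513976 gave the same picture, with 3.45 to 5.04 in session 1 and 3.40 to 4.41 in session 2. The remaining probe, at chr2:75529947-75530006, is named for the transcript AK029360 and behaved differently. It read 2.18 in WT and 2.26 in KO at 0 h in session 2, and between -2.83 and -0.20 on all 14 other arrays. Its change at 6 h was -3.72 in session 2 and 1.40 in session 1.

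Bach1 encodes the repressor that competes with NRF2 and is read by 1 probe at chr16:87730879-87730938 (mm9, plus strand). In WT the arrays read 4.53 and 1.27 at 0 h, 4.03 and 1.40 at 6 h, 3.39 and 1.63 at 12 h, and 3.71 and 1.34 at 24 h. In KO they read 4.60 and 1.64, 3.44 and 1.34, 3.34 and 1.09, and 3.82 and 1.58. Session 1 and session 2 did not overlap, at 3.34 to 4.60 and 1.09 to 1.64, whatever the genotype or time. With the session as a term, 9653 of all 17658 genes differed between sessions (limma adjusted p under 0.05). The share of genes without overlap was not computed.

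With the session term, Bach1 fell at 12 h with both genotypes averaged (-0.65 ± 0.23, limma adjusted p = 0.038). Without that term the same change had adjusted p = 0.708. At 6 h the change was -0.46 and at 24 h -0.40, neither of which passed in either fit.

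Hmox1 encodes heme oxygenase 1, which breaks down heme and is repressed by BACH1 (probe at chr8:77624207-77624266, mm9, plus strand). In WT the arrays read 6.12 and 6.04 at 0 h, 4.57 and 3.37 at 6 h, 8.35 and 6.17 at 12 h, and 7.44 and 6.63 at 24 h. In KO they read 6.33 and 6.17, 7.16 and 3.85, 8.56 and 5.72, and 6.66 and 6.53. The 6 h arrays were the lowest in 3 of the 4 series of arrays, with KO session 1 at 7.16 the exception.

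With the session term and both genotypes averaged, Hmox1 fell at 6 h (-1.43 ± 0.56, limma adjusted p = 0.0495) and was higher at 24 h than at 6 h (2.07 ± 0.56, adjusted p = 0.0125). Without it the same changes had adjusted p = 0.19 and 0.0841. The KO session 1 array at 6 h weighs on this: without it, and without a session term, both passed, at -2.26 (adjusted p = 0.0369) and 2.90 (adjusted p = 0.0214).

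The glutathione members are Gclc and Gclm, the catalytic and modifier subunits of glutamate-cysteine ligase, the first enzyme of glutathione synthesis. Gclc (probe at chr9:77641296-77641355, mm9, plus strand) read 1.51 and 1.77 in WT at 0 h, 0.47 and -1.02 at 6 h, 1.73 and -0.43 at 12 h, and 1.89 and 0.62 at 24 h. In KO it read 1.70 and 1.60, 1.10 and -0.73, 2.19 and -0.24, and 2.13 and 0.94. At 6 h all 4 arrays were below all 4 arrays at 0 h.

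Gclc fell at 6 h with both genotypes averaged (-1.69 ± 0.42, limma adjusted p = 0.00603 with the session term and 0.0788 without) and was higher at 24 h than at 6 h (1.44 ± 0.42, adjusted p = 0.0174 and 0.159). In WT alone the 6 h change was -1.92 (adjusted p = 0.0243 and 0.193). For the 24 h against 6 h comparison, 3 of 10 members were called with the term, against 48.8% of genes, and 1 of 10 without it, against 27%.

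Gclm (probe at chr3:121962174-121964809, mm9, plus strand, a span of 2636 bases that crosses an intron) read 1.55 and -0.26 in WT at 0 h, 0.55 and -1.59 at 6 h, 1.55 and -2.65 at 12 h, and 1.06 and -0.77 at 24 h. In KO it read 2.06 and -0.79, 1.46 and -1.55, 2.79 and -1.72, and 2.24 and -0.15. The sessions did not overlap for Gclm, where 9653 of all 17658 genes differed between sessions in the fit with that term. Gclm was not called for LPS in either fit. Its second probe, at chr3:121970418-121970477, was also lower in session 2 in every group.

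Nqo1 encodes a quinone reductase and was the dimmest member (probe at chr8:109912440-109912499, mm9, minus strand). It was well above background on 14 of 16 arrays, with 1 of 2 arrays at 12 h in each genotype. In WT it read -2.96 and -3.33 at 0 h, -3.22 and -4.61 at 6 h, -3.12 and -5.32 at 12 h, and -3.78 and -5.16 at 24 h. In KO it read -2.41 and -3.07, -2.98 and -4.29, -2.60 and -5.98, and -2.93 and -5.49. Every session 2 array after LPS was lower than every session 1 array.

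With the session term Nqo1 fell at 12 h (-1.31 ± 0.44, limma adjusted p = 0.0291) and 24 h (-1.40 ± 0.44, adjusted p = 0.028) with both genotypes averaged. Without it the adjusted p was 0.272 and 0.284.

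The thioredoxin members are Txnrd1, the cytosolic thioredoxin reductase, Prdx1, a peroxiredoxin that removes hydrogen peroxide, and Srxn1, the sulfiredoxin that repairs over-oxidised peroxiredoxins. Txnrd1 (probe at chr10:82360230-82360289, mm9, plus strand) read 3.88 and 3.94 in WT at 0 h, 5.79 and 4.16 at 6 h, 5.61 and 3.68 at 12 h, and 4.25 and 3.99 at 24 h. In KO it read 4.20 and 3.94, 6.24 and 4.72, 6.37 and 3.98, and 4.83 and 4.39. The 4 session 1 arrays at 6 and 12 h were the highest of the 16. Txnrd1 rose at 6 h with the session term (1.24 ± 0.41, limma adjusted p = 0.0247, against 0.138 without it).

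Prdx1 (probe at chr4:116365578-116366348, mm9, plus strand, a span of 771 bases that crosses an intron) read 7.68 and 7.64 in WT at 0 h, 8.83 and 7.81 at 6 h, 9.19 and 7.78 at 12 h, and 8.69 and 7.90 at 24 h. In KO it read 7.68 and 7.89, 8.92 and 7.79, 9.22 and 7.52, and 8.64 and 7.69. All 6 session 1 arrays after LPS were above all other arrays, and the session 2 arrays stayed within 7.52 to 7.90.

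Srxn1 (main probe at chr2:151936919-151936978, mm9, plus strand) read 4.07 and 3.99 in WT at 0 h, 3.98 and 1.85 at 6 h, 4.81 and 2.92 at 12 h, and 4.50 and 4.08 at 24 h. In KO it read 4.43 and 4.04, 4.70 and 2.23, 5.43 and 2.73, and 4.72 and 4.02. The 4 session 2 arrays at 6 and 12 h were the lowest of the 16. Neither Prdx1 nor Srxn1 was called in these fits.

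These values show that the sessions differed in the response itself, so the LPS response was also computed within each session, averaged over the genotypes, in a fit chosen after the data were seen. It has 4 residual degrees of freedom. In session 1, 6, 7 and 3 of 10 members were called at 6, 12 and 24 h, against 53.4%, 45.2% and 33.9% of all genes. Of these, 4, 6 and 2 rose, against 24.6%, 21.7% and 16.4% of genes, and 2, 1 and 1 fell, against 28.8%, 23.5% and 17.5%. In session 2, 7, 5 and 3 were called, against 59.9%, 55.8% and 48.1%. There 2, 1 and 1 rose, against 31.1%, 28.6% and 23.3%, and 5, 4 and 2 fell, against 28.8%, 27.2% and 24.8%. The members' median change at 12 h was 0.71 in session 1 and -0.14 in session 2, where the median over all genes was -0.03 and 0.09.

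**Figure D2:**
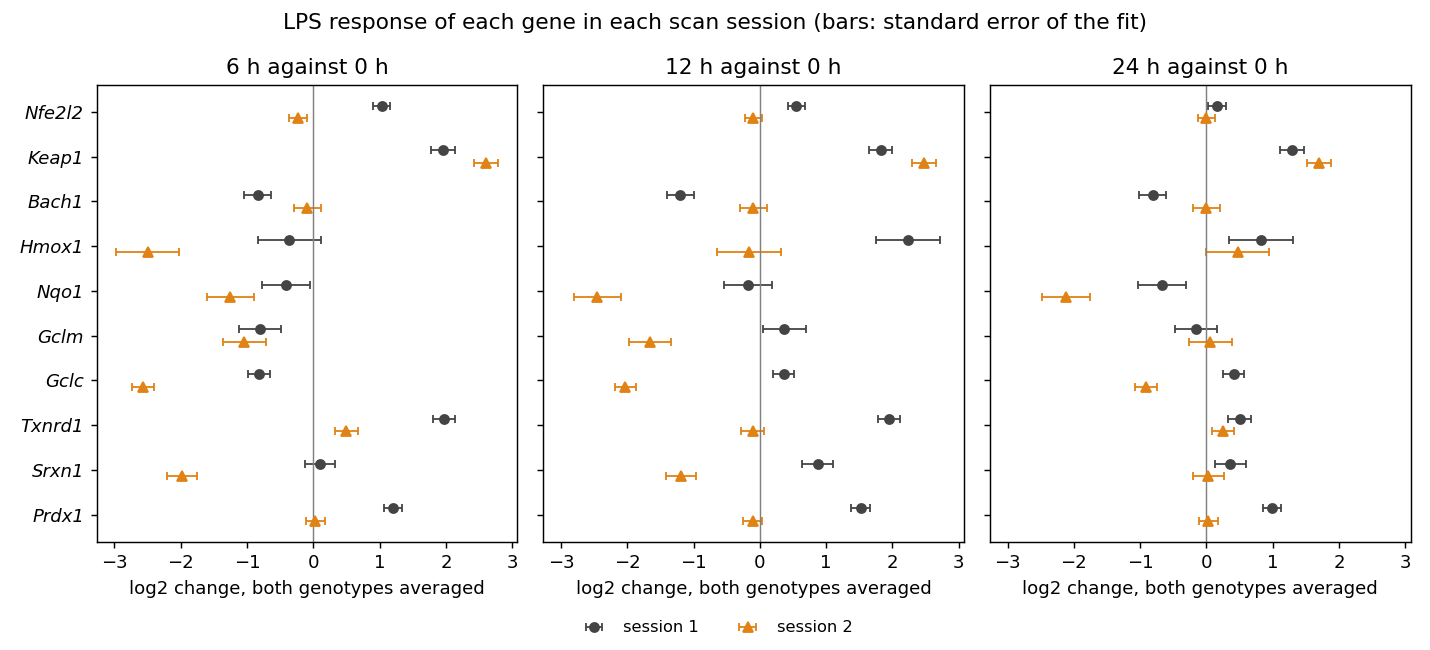
Change from 0 h (log2, both genotypes averaged) of each gene at 6, 12 and 24 h of LPS, with session 1 as dark circles and session 2 as orange triangles. Bars are standard errors of the fit. Keap1 lies above 0 in both sessions at every time, and at 12 h Txnrd1, Prdx1, Srxn1 and Hmox1 lie above 0 in session 1 and at or below 0 in session 2.

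The difference between the sessions' responses was called for 5 of 10 members at 6 h, 6 at 12 h and 2 at 24 h. All had the lower (less positive or more negative) change in session 2. Of all genes, 3.66%, 4.77% and 4.68% were called lower in session 2 at these times, and 7.47%, 9.43% and 9.92% in either direction. In the joint F test over the 3 times, 5 of 10 members were called, against 10.4% of genes. The counts changed when 1 array at a time was left out. Leaving out any array also takes a residual degree of freedom from the fit within sessions, so these changes do not single out particular arrays. Without any 1 of the 4 arrays at 0 h the counts were 0 at 6 h, 1 at 12 h, 0 at 24 h and 0 in the joint test. Without either KO array at 6 h the 6 h count was 0 and the joint count 2, without either WT array at 6 h the 6 h count was 2, and without either KO array at 12 h the 12 h count was 2. Without any 1 of the 4 arrays at 24 h the 24 h count was 0 and the joint count 1 or 2.

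Txnrd1 rose by 1.97 ± 0.17 at 6 h and 1.95 at 12 h in session 1, and its session 2 changes were 0.50 and -0.11. The difference at 12 h was -2.06 ± 0.24 (limma adjusted p = 0.0099). Prdx1 rose by 1.52 ± 0.14 at 12 h in session 1, with a session 2 change of -0.11 (difference -1.64 ± 0.20, adjusted p = 0.0118). In session 2 Txnrd1 passed at 6 h alone (adjusted p = 0.0406) and Prdx1 at none of the 3 times. With quantile normalization these session 2 changes at 6 h turned to -0.24 for Txnrd1 (not called) and -1.06 for Prdx1 (called), and the differences kept their sign and call. The session 2 changes at 12 h were then -0.71 for Txnrd1 and -0.95 for Prdx1, both called.

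Srxn1 rose at 12 h in session 1 (0.87 ± 0.23) and fell in session 2 (-1.19 ± 0.23, difference -2.06, limma adjusted p = 0.0188). The session 1 rise was lost with quantile normalization (0.45, adjusted p = 0.124). Its probes at chr2:151935185-151935244 and chr2:151935232-151935291, which overlap each other, gave differences of -1.89 and -1.88 at 12 h. Gclc was near its 0 h level at 12 h in session 1 (0.36 ± 0.16) and fell in session 2 (-2.03 ± 0.16, difference -2.39, adjusted p = 0.00832).

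Gclm fell at 12 h in session 2 (-1.66), with a session 1 change of 0.37. The difference was -2.03 (limma adjusted p = 0.0445), and it was lost with quantile normalization (-1.64, adjusted p = 0.0825), no filter on dim probes (0.0931), the mean over both probes (0.0609) and any 1 of the 16 arrays left out.

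Nqo1 was not well above background on either session 2 array at 12 h, so its fall there has only a bound. It was at least 5.13-fold lower than at 0 h in that session, set against the lowest signal well above background or the probe's own signal, whichever was higher. The fitted change was -2.45, against -0.18 in session 1, with a difference of -2.27 (limma adjusted p = 0.0439). With the capped normexp background the session 2 change was -0.30 (adjusted p = 0.12) and the difference -0.25 (adjusted p = 0.478). The difference was also lost with quantile normalization (-2.10, adjusted p = 0.072), no filter (0.0916) and any 1 of the 12 arrays at 0, 6 and 12 h left out.

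Nfe2l2 rose at 6 h in session 1 (1.03 ± 0.13), and its session 2 change was -0.23 (difference -1.26 ± 0.18, limma adjusted p = 0.0174). The call was lost with median scaling (adjusted p = 0.0682) and no filter on dim probes (0.0543). Its second probe gave -1.35. The session 2 course of Nfe2l2 depended on the processing. With quantile normalization it was called lower at 6, 12 and 24 h (-1.01, -0.77 and -0.40). With the mean over its probes, the AK029360 probe included, it was called lower at these times too (-1.39, -1.78 and -1.48). Hmox1 rose at 12 h in session 1 (2.23 ± 0.48) with a session 2 change of -0.16, but that difference did not pass (-2.39 ± 0.67, limma adjusted p = 0.0783). It passed with the capped normexp background added after the data were seen (-2.47, adjusted p = 0.00801), and without any 1 of the 4 arrays at 6 h (-2.39, adjusted p = 0.0288). Bach1 fell at all 3 times in session 1 (-0.84, -1.20 and -0.81, each ± 0.20), with session 2 changes of -0.09, -0.10 and 0.00. The differences for Bach1 did not pass (limma adjusted p = 0.0602 to 0.155). With each array scaled by its median the session 1 falls at 6 and 24 h were lost (adjusted p = 0.0628 and 0.211), and the difference at 12 h passed with quantile normalization (1.30, adjusted p = 0.0338) and with the normexp background, planned (3.64) and capped (0.96, adjusted p = 0.0224).

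Keap1 rose in both sessions, by 1.96 and 2.61 at 6 h, and none of its 3 differences passed (limma adjusted p = 0.157 to 0.343). The unstimulated arrays already differed between sessions for Bach1 (-3.11 ± 0.20, session 2 minus session 1, adjusted p = 0.000596), Gclm (-2.33, 0.00385) and Keap1 (-0.71, 0.0257). For all genes 38.7% differed between the sessions at 0 h.

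The comparison of miR-155 KO with WT asks whether loss of the microRNA alters its reported target Bach1 or the genes that BACH1 and NRF2 control. None of the 10 members was called at any time or on average over the times, with or without the session term. The number of members at an unadjusted p under 0.05 was also 0 in each of these comparisons in both limma fits, where 1.35% of all genes were below it on average over the times (5.46% with the session term). Of all genes, 0.017% were called on average over the times (0.0227% with the session term), and 0%, 0%, 0.0113% and 0% at 0, 6, 12 and 24 h (0.00566%, 0.0113%, 0.017% and 0% with it).

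**Figure D3:**
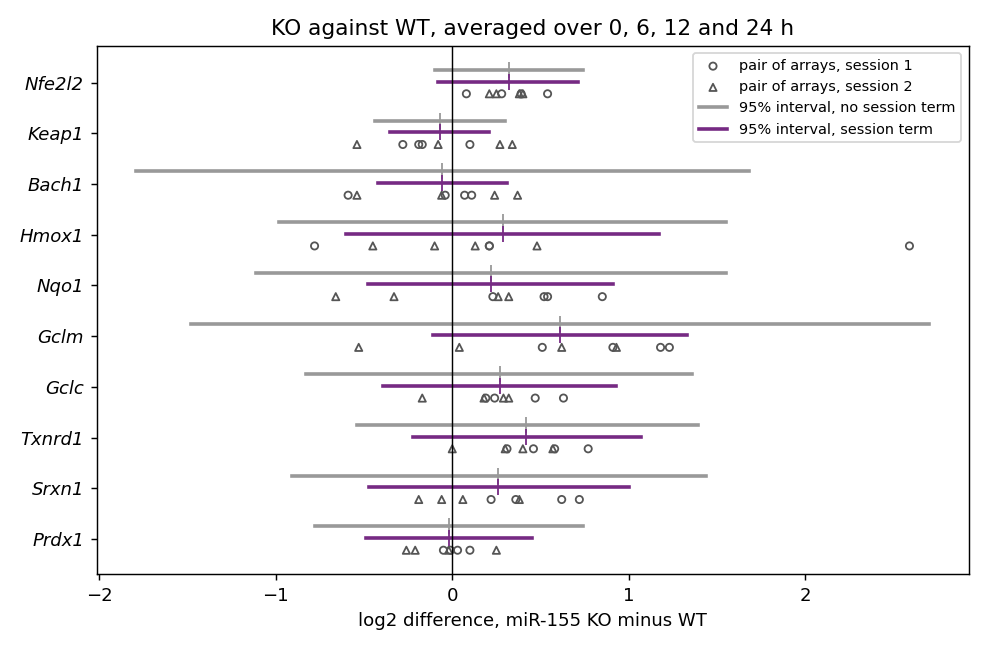
KO minus WT difference (log2) of each gene averaged over 0, 6, 12 and 24 h, with 95% intervals of the fit without a session term in grey and with it in purple. Open circles and triangles are the 8 pairs of arrays of the same time and session. Every interval includes 0, and the 8 Nfe2l2 pairs lie between 0.08 and 0.54.

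Bach1 differed between KO and WT by -0.06 (95% interval -0.42 to 0.31 with the session term, -1.79 to 1.68 without). In the unstimulated cells the difference was 0.22 (-0.51 to 0.95 with the session term). KO was higher in 4 of 8 pairs of arrays of the same time and session, with differences of -0.59 to 0.37. An exact two-sided permutation of genotype within pairs gave p = 0.688, where the smallest value that the 256 arrangements allow is 0.00781. With the session term these arrays bound the mean difference in Bach1 RNA over the 4 times to -0.42 to 0.31. Without it the bound was -1.79 to 1.68, and neither shows that there is none. Intervals at single times were wider, such as -1.06 to 0.41 at 6 h with the term and -3.79 to 3.14 without. All of them rest on the spread between these arrays, which may be technical.

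Nfe2l2 was higher in KO in 8 of 8 pairs, by 0.08 to 0.54, and 1.41% of all genes were higher in KO in every pair. Its mean difference of 0.32 ± 0.19 did not pass (limma adjusted p = 1 without and 0.975 with the session term). Txnrd1, Gclm and Gclc were higher in KO in 7 of 8 pairs, with mean differences of 0.42, 0.61 and 0.27. The share of all genes at 7 of 8 pairs was not computed, so these counts cannot be set against a background. Their intervals with the session term ran from -0.22 to 1.07, -0.11 to 1.33 and -0.39 to 0.93. Hmox1 had the widest pairs, from -0.78 to 2.59, the latter at 6 h in session 1. No difference in LPS response between genotypes was called for any member at any time or in the joint F test (adjusted p = 1 in the joint test for all 10, with and without the session term). Of all genes, 0% were called in the joint test and 0.0113% with the term. The SE of these differences reached 2.66 without the term (Gclm), and Hmox1 at 6 h had 1.37 ± 1.61, so large differences could have been missed. With the term 0.00566% of genes differed in response at 12 h, and 0% did at 6 and 24 h.

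Other genes of the pathway were taken from 6 lists and are given for both genotypes averaged, in the fit without a session term. Of all genes, 19.6% were called higher and 21.2% lower at 6 h, 16.9% and 17.6% at 12 h, and 11% and 11.8% at 24 h (9.81% and 6.57% at 24 h with each array scaled by its median). Counts with the session term stand against 59.5%, 53.3% and 41.9% of all genes called in either direction at 6, 12 and 24 h. Shares by direction were not computed with that term.

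Of 21 partners and regulators of NRF2, 7 rose and 3 fell at 6 h, with a median change of 0.40 over the list and 0.05 over all genes. Mafk and Maff, small MAF proteins that pair with NRF2 and BACH1, rose by 2.20 ± 0.29 and 2.13 ± 0.60 (limma adjusted p = 0.000155 and 0.0163). Cdkn1a, the cell cycle inhibitor p21, rose by 2.99, and Cul3, the ligase scaffold that works with KEAP1, by 0.79. Bach2, the relative of Bach1, fell, and at 6 h its probe was above background on 0 of 2 arrays in each genotype. It was at least 10.1-fold lower in WT and at least 10-fold lower in KO at 6 h than at 0 h (limma adjusted p = 3.33e-05 for both genotypes averaged). These bounds set the mean at 0 h against the lowest signal well above background on each 6 h array, or the probe's own signal where that was higher.

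**Figure D4:**
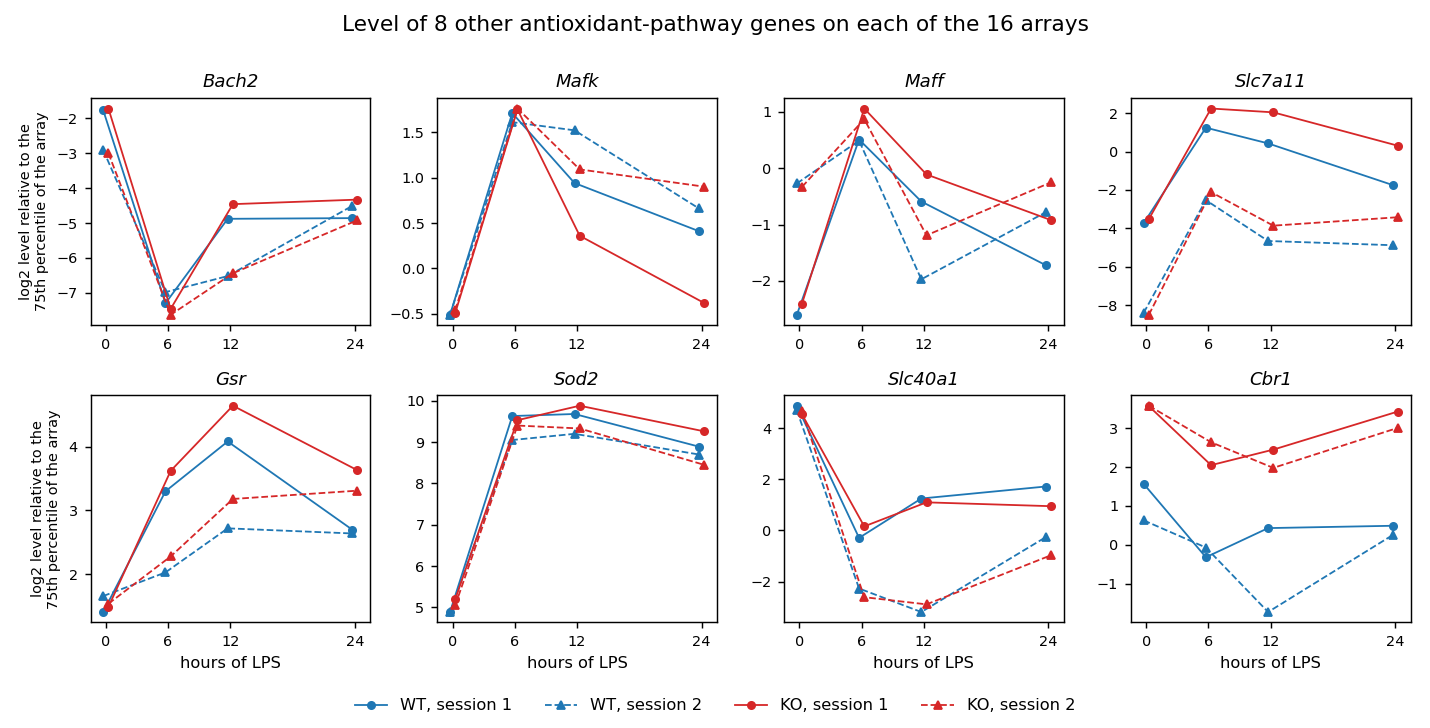
Level (log2 relative to the 75th percentile of the array) of 8 further genes against hours of LPS, drawn as for the 10 members, 1 point an array. Bach2 falls and Mafk and Sod2 rise at 6 h on all 4 arrays. Slc40a1 is lower in session 2 than in session 1 of the same genotype and time after LPS, and Cbr1 is higher in KO at every time.

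Of 22 glutathione genes tested, 6 rose and 1 fell at 6 h, and 6 rose and 6 fell at 12 h. With the session term 6 rose and 4 fell at 6 h, and 7 rose and 10 fell at 12 h. The median change over the list at 6 h was -0.24. Glrx, a glutaredoxin, rose by 2.86 ± 0.41 at 6 h, and Gstt1, a glutathione transferase, by 2.98. Slc7a11, the cystine transporter that feeds glutathione synthesis, rose by 5.76 ± 2.01 at 6 h (limma adjusted p = 0.0415), with 1 of 2 arrays above background at 0 h in each genotype, so the size of its change is not exact. Gsr, glutathione reductase, rose by 1.28 ± 0.45 at 6 h and 2.13 at 12 h, and its response was lower in session 2 (difference -1.56 ± 0.19 at 12 h, adjusted p = 0.011).

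Of 18 thioredoxin, peroxiredoxin and superoxide genes, 3 rose and 4 fell at 6 h (5 and 6 with the session term), with a median of -0.11. Prdx5, a mitochondrial and peroxisomal peroxiredoxin, rose by 2.91 ± 0.30 and Txn1, thioredoxin, by 1.88 ± 0.30. The mitochondrial superoxide dismutase Sod2 rose by 4.39 ± 0.24. Sesn1, a sestrin, fell by 5.41 on the log2 scale (limma adjusted p = 9.75e-07), and Sesn2 fell by 2.28. Of 9 genes of NADPH supply, 0 rose and 2 fell at 6 h, with a median of -0.28. These were the isocitrate dehydrogenase Idh1 (-2.02 ± 0.21) and the malic enzyme Me2 (-0.88 ± 0.19).

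Of 12 heme and iron genes, 1 rose and 4 fell at 6 h (4 and 6 with the session term), with a median of -0.22. Cp, the copper oxidase ceruloplasmin, rose by 7.26 ± 0.35. Slc40a1, the iron exporter ferroportin, fell by 5.95 on the log2 scale (SE 1.16, limma adjusted p = 0.00212). At 12 h Slc40a1 fell further in session 2 than in session 1 (difference -4.19 ± 0.31, limma adjusted p = 0.00509). Blvra, the biliverdin reductase that acts after heme oxygenase, fell by 1.29 on the log2 scale. Of 13 quinone and aldehyde genes, 0 rose and 4, 7 and 5 fell at 6, 12 and 24 h, and the median at 6 h was -0.38. With the session term 3, 3 and 2 of these 13 rose and 7, 7 and 6 fell at these times.

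Cbr1, a carbonyl reductase, was the only gene of the 6 lists called between genotypes on average over the times. Its level was 1.98 to 3.58 on the KO arrays and -1.73 to 1.57 on the WT arrays, with no overlap. The share of all genes without overlap between the genotypes was not computed. KO was higher by 2.68 ± 0.30 (limma adjusted p = 0.0183, and 0.0112 with the session term).

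The genes most like 3 of the members were found by Pearson r over the 16 arrays after the session mean was removed. They were Zfp658 (0.88), Nup93 (0.84) and Txnrd1 (0.83) for Nfe2l2, and Fbxo44 (0.87) and Smdt1 (0.86) for Bach1. For Hmox1 they were Vkorc1l1 (0.90), Hdac7 (0.90) and Sgk1 (0.89). These are descriptions of arrays that share sessions, slides and times.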

How the data were processed

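Total RNA was measured on 16 single-colour (Cy3) Agilent arrays, 2 for each of 8 groups, 4 to a slide. Per the file headers, Agilent Feature Extraction 10.5.1.1 gave the deposited intensity of each spot after its own background subtraction and detrending, and probe positions are on mm9. The deposited series table holds log2 values with the 75th percentile of every array at 8.79, and correlated with the log2 intensities at r = 1. Its filter and its scaling beyond that are not given in the sources used here.

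Outlier spots (61 to 108 an array) and 1639 control spots were removed, spots of a probe were averaged on the log2 scale, and the 75th percentile of the array was subtracted. Of 41174 probes, 26854 were complete on all arrays and well above background on both arrays of at least 1 group. A gene was read by its probe of highest mean, giving 17658 genes (14243 with a reference symbol), and the other probes of a member are given beside it. No member spot was saturated. The 8 group means were modelled in limma 3.58.1 (R 4.3.3), its moderated tests were adjusted over all genes by Benjamini-Hochberg, and 0.05 was the threshold. A value after ± is the SE of the fit that its sentence names. The number of arrays limits the precision.

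The replicate numbers pair the arrays: each number is a scan session in the file headers, and the deviations of same-numbered arrays had a correlation of 0.40 to 0.84 (median 0.58) over the 28 pairs of groups. Results with the session as a block are given where they change a call or move a count by over 1.5 times. The fit of the response within sessions and a capped background correction were added after the data were seen. The fits were tested on simulated data.

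The members, the lists and the pathway genes were chosen with earlier results of these data known. All 10 members are named, called or not. Of each list, up to 4 called genes in each direction are named, largest change first, with examples of them given. For Nfe2l2, Bach1 and Hmox1 the 3 most similar genes are named, except 1 gene for Bach1 that is not reported here. Alternatives were the session block, the slide as a random block, normexp background, median and quantile scaling, the deposited table, no filter, the mean over probes, and leaving out each array.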

Additional observations from a re-analysis of the deposited data

Results flagged for a closer look

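The results below differed between groups by a test of the difference itself, and all but the first come from the fit within sessions that was chosen after the data were seen. Keap1 changed between 6 h and 24 h by -0.79 with both genotypes averaged, in 4 of 4 pairs of arrays of the same genotype and session.

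The log2 change from 0 h was lower (less positive or more negative) in session 2 than in session 1 for 7 members. At 6 h, for example, Txnrd1 rose by less in session 2 (0.50 against 1.97), while Gclc fell further there (-2.57 against -0.82). At 6 h the differences were -1.26 for Nfe2l2, -1.75 for Gclc, -1.47 for Txnrd1, -2.07 for Srxn1 and -1.16 for Prdx1. At 12 h they were -2.27 for Nqo1, -2.03 for Gclm, -2.39 for Gclc, -2.06 for Txnrd1, -2.06 for Srxn1 and -1.64 for Prdx1. At 24 h they were -1.32 for Gclc and -0.96 for Prdx1. The Nqo1 value rests on 2 session 2 arrays at 12 h on which its probe was not well above background, and it was -0.25 with the capped background. The neutrophil markers were also lower in session 2, and their part in these differences was not tested.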

How the results depend on the processing

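The fit within sessions and the capped background correction were chosen after seeing the data. The number of members called rose with the replicate block, to 2 in WT at 6 h, to 4, 3 and 2 at 6, 12 and 24 h with both genotypes averaged, and to 3 for 24 h against 6 h. The block ended no call and moved no other count. The slide as a random block (consensus correlation 0.595) gave 2, then 3, 2 and 2, and 3 for the same comparisons. Normexp on the scanner's mean and background signals gave 0 for all 10 LPS comparisons, 4 for session 2 at 6 h, and 3, 1 and 9 for the session differences at 6 h, at 24 h and in the joint test. Under it the 12 h change of session 1 reversed to -2.56 for Nfe2l2, -1.24 for Keap1, -0.77 for Hmox1, 1.86 for Nqo1, -1.37 for Gclm, -1.40 for Gclc, -1.08 for Txnrd1, -2.20 for Srxn1 and -1.45 for Prdx1. The session difference at 12 h reversed to 2.43 for Nfe2l2, 0.20 for Gclm, 0.96 for Txnrd1, 1.01 for Srxn1 and 1.26 for Prdx1, and Nqo1 at 24 h in session 2 to 0.13. Single spots with a local background of up to 362027 and 722571 left both session 1 arrays at 12 h with a log2 span of 0.07 and 0.04 between the 10th and 75th percentile, against 2.91 and 2.84 with that background capped. Capped, the count in session 1 at 24 h went to 5, 6 other counts moved by 1 or 2, and no called direction reversed. Capping ended the session 2 calls of Nqo1 at 6 h (-0.08) and 12 h (-0.30). Median scaling gave 0 in KO at 24 h, 3 at 6 h with both genotypes, 2 for 24 h against 6 h, and 3 and 0 for the session differences at 6 and 24 h. Quantile normalization gave 0 in KO at 24 h and 8 for session 2 at 12 h, and turned Txnrd1 and Prdx1 at 6 h in session 2 to -0.24 and -1.06. It also called Nfe2l2 lower in session 2 at 6, 12 and 24 h (-1.01, -0.77 and -0.40). No filter gave 0 in KO at 24 h and for 24 h against 6 h, and 1, 0 and 1 for the session differences at 6 h, at 24 h and in the joint test. The cause of each of these changes was not tested, beyond the compressed arrays.

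Leaving out 1 array at a time gave 0 to 1 members in WT at 24 h, in KO at 24 h and for 24 h against 6 h, and 1 to 2 at 6 h with both genotypes. It gave 5 to 6, 3 to 7 and 1 to 3 in session 1, 4 to 7, 3 to 5 and 2 to 3 in session 2, and 0 to 5, 1 to 5 and 0 to 1 for the session differences, with 0 to 3 in the joint test. A group left with 1 array was assumed to vary like the others. Relative to the main scaling, median scaling moved the median change of all genes at 24 h from -0.03 to 0.30, and quantile normalization that at 6 h from 0.05 to -0.13. No KO against WT count moved. Bach1 has 1 probe, so the planned test on another gave no value. With 2 arrays a group and Nqo1 near background, small differences were not detectable.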
